A study of Mus musculus with 6 samples.

Results

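The 35 imprinted genes described here belong to 16 imprinted clusters on 9 mouse chromosomes. They were taken by gene symbol from a table of 53110 genes that was made from RNA-seq of neural stem cells (NSCs) at 21% O2, and all 35 symbols were found. Rtl1 is listed there under 2 identifiers, of which 1 carries no values and the other was used. WT NSCs were compared with NSCs heterozygous for a loss of Setd5, a SET domain gene linked to neurodevelopmental disorders. Reads were counted for 29 of the 35 genes, and 23 reached the mean of at least 10 normalized counts that was required for a comparison. The other 6 genes with reads stayed under it.

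Imprinted genes are expressed mainly from either the maternal or the paternal allele. The choice is set in the germ line by DNA methylation at imprinting control regions, kept through cell division by factors such as DNMT1 and ZFP57, and often carried along a cluster by a long non-coding RNA or by CTCF. Many of these genes act on growth, and several are abundant in the developing brain. RNA-seq without allele calls gives their total level and does not show which allele was read.

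Both groups were primary NSCs from embryonic mouse cortex, grown as adherent cultures on Matrigel with bFGF and EGF in an incubator at 21% O2. WT and Setd5+/- NSCs each have 3 samples by the labels, and the mutation had been made with CRISPR-Cas9. Samples of a genotype agreed within sampling noise: comparing their read pairs gene by gene gave a chi-square of 0.961 to 0.986 per degree of freedom in 6 same-genotype pairs, against 34.85 to 34.97 in 9 pairs of unlike genotype. Their column names show the same index and lane, so each set of 3 was counted as 1 library, and n is 1 per genotype. Reads on genes came to 30004634 in WT and 21435546 in Setd5+/-. The mutant columns carry the name of clone A3, which is not among the clones that the study's text names, and the genotype cannot be told apart from the clone, the library, its index or its lane. For these reasons no p-value and no SD is given, and every difference below is a difference between 2 libraries without a replicate check. A log2 fold change is the log2 of the mean normalized count plus 1 in Setd5+/- over that in WT. The 95% interval beside it is an exact binomial (Clopper-Pearson) interval on the reads and covers counting error only. Whether the sample values of the 2 genotypes overlap likewise reflects read sampling only, since the samples of a genotype are 1 library.

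Setd5 itself, the targeted gene, lies on chromosome 6 from 113077365 to 113153435 (GRCm38, the build also called mm10). The WT samples had 2498, 2749 and 2780.1 normalized counts and the Setd5+/- samples 2151, 1989.9 and 2055, a log2 fold change of -0.37 (-0.44 to -0.31). Genes on chromosome 1 stood apart, with a median log2 fold change of 0.53 over 1044 genes against -0.04 over the other 15222, and no imprinted gene described here lies on that chromosome. On the chromosomes that hold most of the imprinted genes, the median of all other genes compared was -0.09 on chromosome 7 and 0.01 on chromosome 6.

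Of the 23 imprinted genes compared, 7 differed by more than 2-fold between the libraries, 6 lower and 1 higher in Setd5+/- NSCs. That is 30.4% of them, beside 16.4% of all 16266 genes compared. The lower genes were H19, Ndn, Zim1, Nap1l5, Mkrn3 and Peg10, or 26.1% of the 23 beside 6.14% of all genes. The higher gene was Igf2r, or 4.35% beside 10.3%. The median log2 fold change was -0.22 over the 23 imprinted genes and -0.02 over all genes. The counting interval left out 0 for 16 of the 23 (69.6%, beside 64.3% of all genes), with 12 lower (32.3% of all genes) and 4 higher (32.0% of all genes). With a single library of each genotype these shares describe 2 libraries and do not test whether imprinted genes differ from others.

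**Figure D1:**
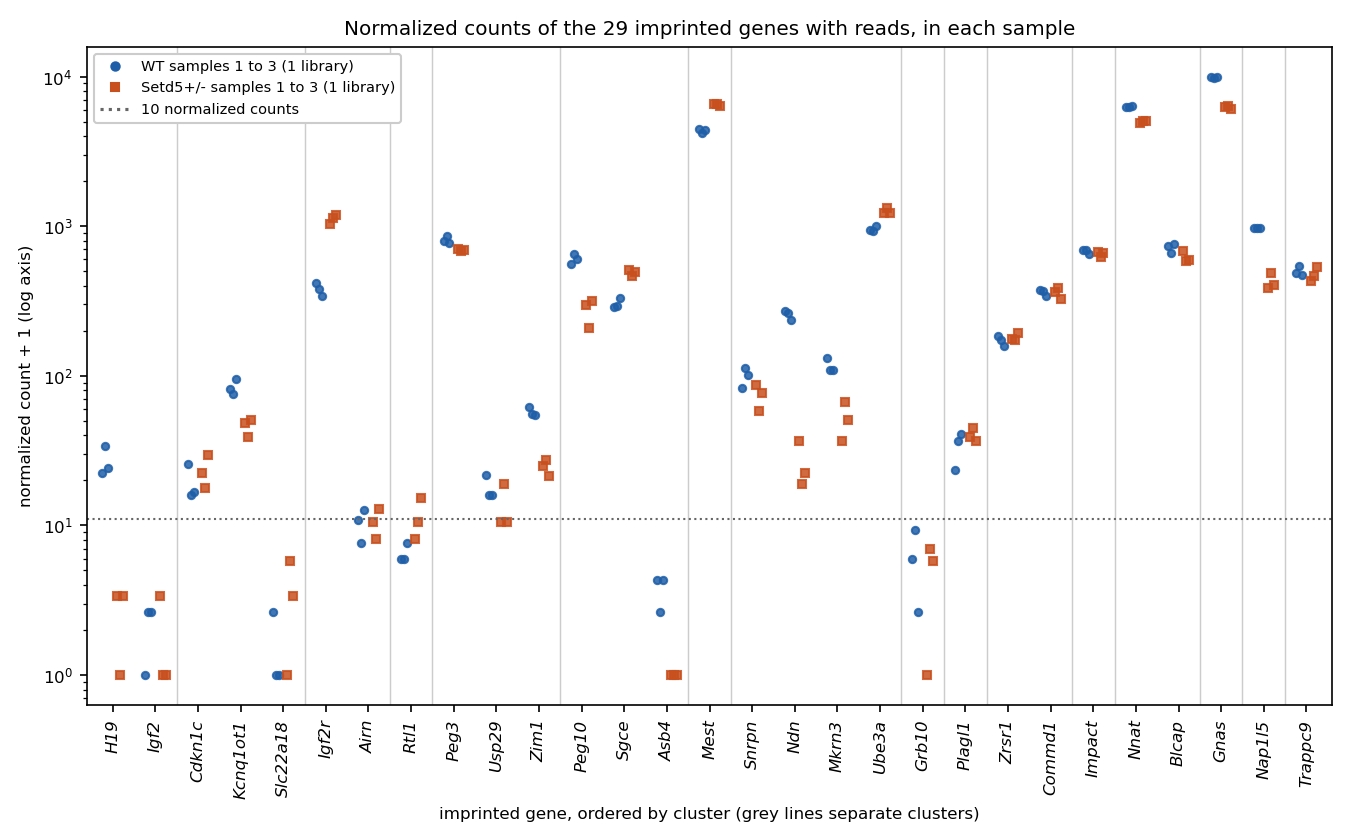
Normalized count plus 1 (log axis) of each of the 29 imprinted genes with reads, with 1 point per sample, for WT (circles) and Setd5+/- (squares). The genes are ordered by cluster and the dotted line marks 10 normalized counts. The squares of H19, Ndn, Zim1, Nap1l5, Mkrn3 and Peg10 lie below all circles of the same gene, and those of Igf2r lie above them.

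The genes past 2-fold were spread over 6 clusters. They were 4 of the 14 imprinted genes on chromosome 7, 2 of the 5 on chromosome 6 and 1 of the 2 on chromosome 17, counting genes that were not compared as well. By the allele that is known from textbooks to be expressed, 4 of the 14 paternally expressed genes compared were past 2-fold, all lower. That is 28.6%, beside 6.14% of all genes lower past 2-fold, and the median of the 14 was -0.37. Among the 4 maternally expressed genes compared, H19 and Zim1 were lower, Igf2r was higher and Cdkn1c was within 2-fold. None of the 5 genes whose imprint varies with tissue or promoter (Ube3a, Commd1, Blcap, Gnas and Trappc9) was past 2-fold, beside 16.4% of all genes. With 5 genes, a count of none cannot be told apart from that share. The interval left out 0 for 3 of these 5 genes (60.0%, beside 64.3% of all genes).

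**Figure D2:**
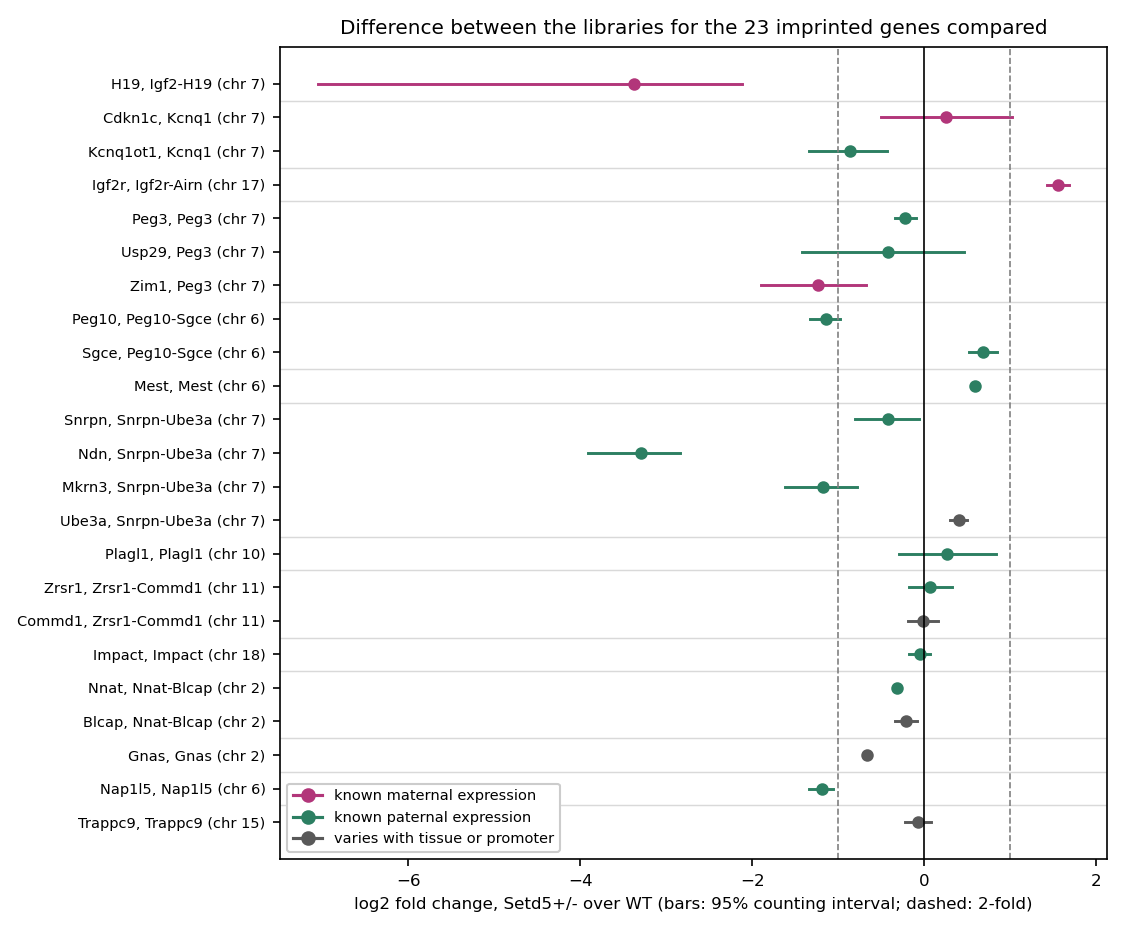
Log2 fold change (Setd5+/- over WT) of the 23 imprinted genes compared, grouped by cluster, with 95% counting intervals as bars and dashed lines at 2-fold. Colours give the allele that is known to be expressed. H19 at -3.38 and Ndn at -3.30 lie farthest to the left, Igf2r at 1.55 lies farthest to the right, and Peg10 and Sgce of the same cluster lie on opposite sides of 0.

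Markers of several neural cell types also moved between these libraries. All 13 NSC markers looked at were above 10 normalized counts in the mean, among them Sox2 (3119 in WT and 2732 in Setd5+/-), Nes (2378 and 1951) and Pax6 (402 and 529.7). The 13 summed to 56310 to 56768 in WT and 35282 to 35653 in Setd5+/-. Of them, 10 were lower and 3 higher, and the interval left out 0 for all 13. Past 2-fold, 3 of the 13 were lower (23.1%, beside 6.14% of all genes), led by Prom1 (log2 fold change -2.92) and Fabp7 (-1.65). Of the 5 neuronal markers compared, 3 were lower past 2-fold (60.0%, beside 6.14% of all genes), led by Syt1 (-3.42) and Dcx (-3.20). The summed level of the 10 listed neuronal genes lay between 506 and 565 in WT and between 235 and 275 in Setd5+/-, with Neurod1 and Neurod6 at 0 reads. The 8 genes of the oligodendrocyte lineage summed to 40997 to 41788 in WT and 23688 to 24533 in Setd5+/-, mostly Olig1 (28867 and 15491) and Olig2 (10646 and 6078). Of the 7 compared, 4 were lower and 3 higher, and the interval left out 0 for all 7. Past 2-fold, Sox10 (-6.85) and Mbp (-2.18) were lower (28.6%, beside 6.14% of all genes). The 3 higher genes stayed within 2-fold, up to 0.91. The 6 astrocyte markers summed to 7091 to 7212 in WT and 3905 to 4191 in Setd5+/-, with Gfap (3.87) and Aqp4 (1.68) higher and Slc1a2 (-1.93) and Aldh1l1 (-1.36) lower, and Slc1a2 alone was at 4678 and 1225. Of these 6, 3 were higher and 2 lower past 2-fold (83.3%, beside 16.4% of all genes). Summed markers of microglia were 78.6 to 117 and 48.9 to 70.3, nearly all of it Csf1r (98.02 and 53.6), while Aif1 was at 0.83 and 4.37 and Cx3cr1, Ptprc and C1qa had 0 reads. Mesenchymal and mural markers summed to 387 to 409 and 578 to 678, but Prrx1 (382 and 627) was the single one of 10 above the filter, Acta2 was at 7.73 and 0.79, and Lum and Twist1 had 0 reads. Those of endothelial cells came to 9.11 to 16.5 and 13.1 to 26.2, where Kdr was higher (1.36), and those of the choroid plexus to 4.97 to 14.9 and 4.76 to 17.9, with Ttr and Folr1 at 0 reads. The part of these shifts in the levels of the imprinted genes was not tested, and in bulk RNA fewer cells of a type and less RNA per cell cannot be told apart.

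Ndn and Mkrn3 lie in the cluster of chromosome 7 that corresponds to the human region of Prader-Willi and Angelman syndromes. Its paternally expressed genes include Ndn (necdin, a MAGE family protein of post-mitotic neurons), Magel2, Mkrn3 (a RING finger protein) and Snrpn (a splicing protein of the brain), and its best known maternally expressed gene is Ube3a (a ubiquitin ligase). Ndn (62346569 to 62350262) had 269, 262 and 235 normalized counts in WT and 35.8, 17.9 and 21.4 in Setd5+/-. The sets lay far apart, with a log2 fold change of -3.30 (-3.91 to -2.84), from 925 reads in WT and 63 in Setd5+/-. Mkrn3 (62417593 to 62420139) had 131, 108 and 108 normalized counts in WT and 35.8, 65.5 and 50.03 in Setd5+/-, again without overlap, at -1.18 (-1.62 to -0.79), which became -0.99 without Setd5+/- replicate 1. Magel2, which lies between them, had no read in either library, so up to 1.66 normalized counts in WT and 2.38 in Setd5+/- are allowed by the depth (3 read pairs over the library).

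The other end of the same cluster differed less. Snrpn had 82.1, 113 and 100.2 normalized counts in WT and 85.8, 57.2 and 76.2 in Setd5+/-. These sets overlapped, at a log2 fold change of -0.42 (-0.80 to -0.06). Ube3a had 935, 929 and 1002 normalized counts in WT and 1228, 1327 and 1226 in Setd5+/-, all higher in Setd5+/-, at 0.40 (0.30 to 0.50). The long non-coding gene Snhg14, whose transcript is known to run antisense to Ube3a, was at 397 and 499.6 normalized counts (0.33). It shares 8.74% of the exon bases of Ube3a on the opposite strand, and since the library kit does not mark strand, reads there cannot be assigned to either gene. Among the neighbours of this cluster, Peg12 (Frat3, a paternally expressed inhibitor of GSK3) was also lower, from 448 to 112 normalized counts (-1.99, -2.26 to -1.74), and Atp10a, a phospholipid flippase beside Ube3a, was higher, from 24.3 to 262 (3.38, 2.98 to 3.91). The long non-coding gene Gm9801, named after its values were seen, lies on the Snrpn side of Ndn and went from 32.03 normalized counts in WT to 0 reads in Setd5+/-. Gm9801 was compared only because of its WT level. Between Gm9801 and Snrpn, genes such as A230057D06Rik (-0.64), A330076H08Rik (-0.04), Gm3257 (0.06) and Mir344g (0.95), also named after their values were seen, were within 2-fold. Of the 16 other genes compared within 500 kb of this cluster, Atp10a was the 1 higher and Gm9801 and Peg12 the 2 lower.

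At the Igf2-H19 locus on chromosome 7, H19 (142575529 to 142578143, minus strand) is a maternally expressed long non-coding RNA, and Igf2 encodes a fetal growth factor that is expressed from the paternal allele. H19 had 21.6, 33.1 and 23.2 normalized counts in WT and 2.38, 0 and 2.38 in Setd5+/-. In reads this was 94 against 4, a log2 fold change of -3.38 (-7.05 to -2.12). The gene was low in WT too and was compared only because of its WT level, so the size of the change is poorly fixed by these few reads. Igf2 was near 0 in both libraries, with 4 reads in WT and 2 in Setd5+/-.

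The maternally expressed gene Igf2r (chromosome 17, 12682406 to 12769664, minus strand) encodes the receptor that takes IGF2 and mannose 6-phosphate proteins to lysosomes. Airn, an antisense RNA that starts within it and is expressed from the paternal allele, is known to silence the paternal Igf2r in most tissues but not in neurons. Igf2r had 417, 379 and 343 normalized counts in WT and 1029, 1129 and 1186 in Setd5+/-. Every Setd5+/- value was above every WT value, at a log2 fold change of 1.55 (1.42 to 1.69), and Igf2r was the single imprinted gene compared that was higher past 2-fold. Airn stayed at the low end, with 9.95, 6.62 and 11.6 normalized counts in WT and 9.53, 7.15 and 11.9 in Setd5+/-, from 34 and 24 reads. These sets overlapped, and an interval of -1.16 to 1.16 shows that the reads could not have resolved a change of up to about 2-fold. No exon of Airn overlaps one of Igf2r on the annotation used. Per kb of exon, Igf2r was at 40.8 normalized counts in WT and 119.8 in Setd5+/-, and Airn at 2.61 and 2.65.

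On chromosome 6, Peg10 and Sgce lie head to head and are both known to be expressed from the paternal allele. Peg10 is a retrotransposon-derived gene that is needed for the placenta, and Sgce encodes epsilon-sarcoglycan. Peg10 (4747306 to 4760517) had 559, 654 and 607 normalized counts in WT and 294, 208 and 317 in Setd5+/-, all lower, at -1.15 (-1.33 to -0.98), which became -0.99 without Setd5+/- replicate 2. Sgce (4674350 to 4747207) had 289, 294 and 331 normalized counts in WT and 508, 467 and 492 in Setd5+/-, all higher, at 0.68 (0.52 to 0.85). The genes of this pair thus differed in opposite directions between the libraries, and their counting intervals lay on opposite sides of 0. Asb4, a maternally expressed gene farther along, had 3.32, 1.65 and 3.31 normalized counts in WT and no read in Setd5+/-. Its WT mean of 2.76 was 1.16-fold above the 2.38 that a count of 0 allows there. The counting interval reached up to 0.59 and so held 0.

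The Peg3 cluster of chromosome 7 holds zinc finger genes. Zim1 (6671269 to 6696450, minus strand), a maternally expressed zinc finger gene, had 61.4, 54.6 and 53.8 normalized counts in WT and 23.8, 26.2 and 20.3 in Setd5+/-, without overlap, at -1.24 (-1.91 to -0.68). Peg3, the paternally expressed zinc finger gene beside it, had 796, 860.4 and 766 in WT and 698, 681 and 694 in Setd5+/-, also without overlap but at -0.22 (-0.35 to -0.10). Usp29, which shares a start region with Peg3, had 20.7, 14.9 and 14.9 in WT and 9.53, 17.9 and 9.53 in Setd5+/-, with overlapping values and an interval of -1.42 to 0.46.

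Nap1l5, a paternally expressed retrogene of the nucleosome assembly protein family, is the sole member of its cluster and lies in an intron of Herc3 on chromosome 6 (58905233 to 58907076, minus strand). Its normalized counts were 969, 966 and 976 in WT and 383, 482 and 406 in Setd5+/-, all lower, at -1.19 (-1.34 to -1.06). Herc3, its host on the opposite strand, had 243 and 274 (0.18, -0.03 to 0.38), and no exon is shared by the 2 genes.

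**Figure D3:**
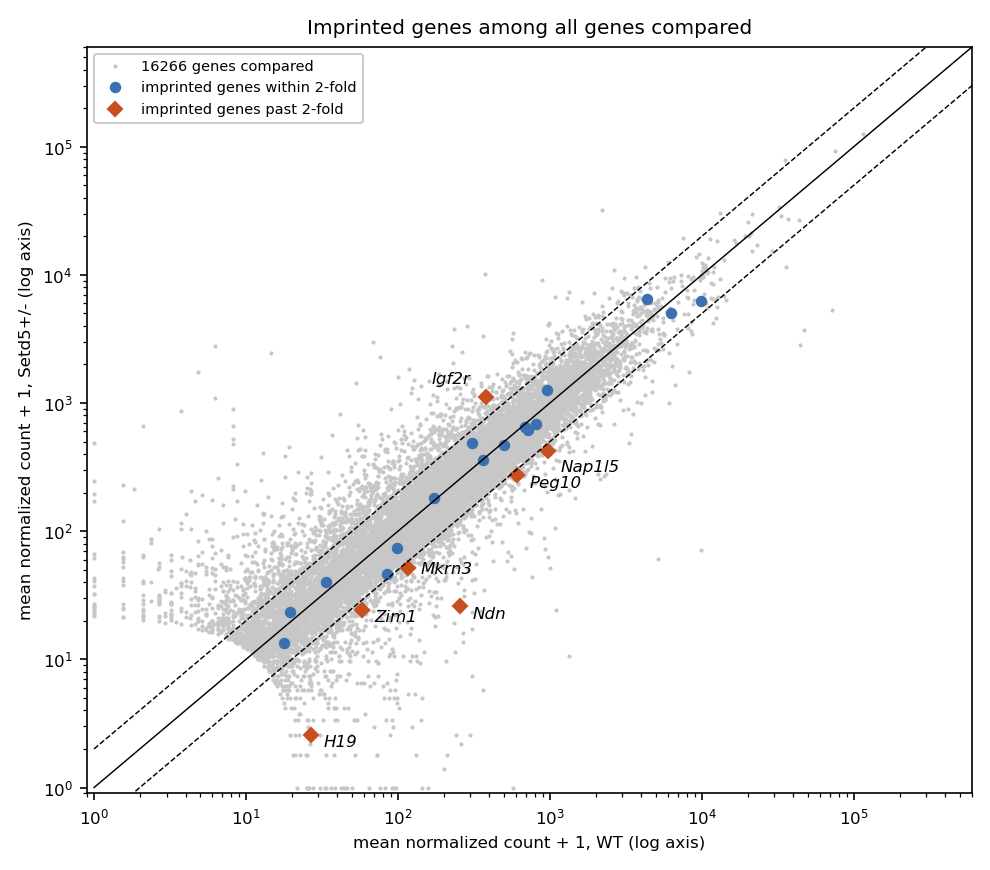
Mean normalized count plus 1 in WT (x, log axis) against Setd5+/- (y, log axis) for the 16266 genes compared (grey), with the imprinted genes past 2-fold as named diamonds and those within it as blue circles. The solid line marks equal levels and the dashed lines 2-fold. Igf2r lies above the upper dashed line, and Ndn and H19 lie well below the lower one.

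Promoter sequence was looked up for these genes in RefSeq windows of GRCm38.p6, taking the 250 bases before each annotated start. A window was found for 28 of the 35 genes, 43 windows in all, and none for H19, Cdkn1c, Rtl1, Peg10, Sgce, Impact and Trappc9. Imprints are carried by methylated CpG at imprinting control regions, and whether any window lies in such a region was not checked. The windows of 3 genes past 2-fold are shown with each CpG in capitals. They are Mkrn3 (chr7:62420154-62420403, minus strand), Nap1l5 (chr6:58907127-58907376, minus strand) and Igf2r (chr17:12769707-12769956, minus strand), each read in the direction of transcription.
Mkrn3: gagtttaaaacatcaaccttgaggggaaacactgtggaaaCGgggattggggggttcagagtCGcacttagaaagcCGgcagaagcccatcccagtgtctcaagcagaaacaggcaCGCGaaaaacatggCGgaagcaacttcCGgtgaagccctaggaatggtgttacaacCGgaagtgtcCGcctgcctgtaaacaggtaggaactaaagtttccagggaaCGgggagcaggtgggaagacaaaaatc
Nap1l5: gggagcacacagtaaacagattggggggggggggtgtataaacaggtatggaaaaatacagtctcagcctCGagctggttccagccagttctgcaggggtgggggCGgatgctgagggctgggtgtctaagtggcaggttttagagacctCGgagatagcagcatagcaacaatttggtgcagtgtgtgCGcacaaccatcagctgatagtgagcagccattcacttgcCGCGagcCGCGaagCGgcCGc
Igf2r: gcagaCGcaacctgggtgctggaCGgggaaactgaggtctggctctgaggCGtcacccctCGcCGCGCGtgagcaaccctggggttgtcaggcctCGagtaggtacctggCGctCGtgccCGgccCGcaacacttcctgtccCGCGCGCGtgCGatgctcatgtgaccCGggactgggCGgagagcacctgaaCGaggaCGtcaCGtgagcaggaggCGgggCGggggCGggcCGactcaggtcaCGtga
Igf2r had 27 CpG in its window, whereas Mkrn3 and Nap1l5 had 10 each, beside a median of 10 over the 43 windows and of 6 over all 32851 windows of the table. The hexamer TGCCGC, which ZFP57 binds when its CpG is methylated, was searched on both strands (the other strand reads GCGGCA) and was found in 6 of the 43 windows, beside 8.68% of all windows. Nap1l5 and Zim1 had 1 match each, and the windows of Mkrn3, Ndn and Igf2r had none. The starts are those of RefSeq, and the Ndn window (chr7:62348027-62348276) lies wholly inside the span of Ndn given above. Several other windows, those of Mest among them, also lie inside the span of their own gene. Of the 6 matching windows, 2 belong to Mest and overlap almost fully. A match describes the letters only, and methylation was not measured.

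The 3 imprinted genes with the highest normalized counts in both libraries differed by less than 2-fold and made up most of the summed level. Gnas (the stimulatory G protein alpha subunit), Nnat (neuronatin, a membrane proteolipid of the developing brain) and Mest (a hydrolase-like growth gene) held 35.7%, 22.7% and 15.7% of the summed imprinted level in WT and 25.3%, 20.4% and 26.4% in Setd5+/-. Gnas had 9953, 9713 and 9871 normalized counts in WT and 6226, 6331 and 6074 in Setd5+/-, all lower, at -0.66 (-0.70 to -0.63). Nnat had 6232, 6222 and 6320 (WT) against 4908, 5079 and 5033, at -0.32 (-0.37 to -0.28). Mest was the opposite, with 4446, 4165 and 4382 in WT and 6540, 6559 and 6361 in Setd5+/-, at 0.58 (0.54 to 0.63). Mest shares 23.1% of its exon bases with Copg2 on the opposite strand, a coat protein gene counted at 2336 and 3055 (0.39), and reads there cannot be assigned to either gene. Per kb of exon, Nnat was the highest imprinted gene in both libraries (3421 and 2737 normalized counts), followed by Mest (1098 and 1644), Gnas (880 and 555), Nap1l5 (526 and 229.8) and Blcap (236 and 204). This order did not change between the libraries, while Ndn dropped from rank 8 to rank 18 and Igf2r went from rank 15 to rank 7. Gnas shares 13.1% of its exon bases with Gm20721 on the opposite strand, which was counted at 9593 and 6054 normalized counts (-0.66), so reads of these genes cannot be told apart.

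The nested pairs of Zrsr1 and Commd1, Nnat and Blcap, and Peg13 and Trappc9 differed by less than 2-fold in each gene. Zrsr1, a paternally expressed splicing factor gene in an intron of Commd1, had 171 and 179 normalized counts (0.07, -0.18 to 0.32), and Commd1 (a copper metabolism gene) had 361 and 357 (-0.01, -0.19 to 0.16). Blcap, the host gene of Nnat, was at 719 and 620.3 (-0.21, -0.34 to -0.09). Trappc9, a subunit of a vesicle tethering complex, was at 499 and 474 (-0.08, -0.22 to 0.07), and the non-coding Peg13 in its intron was at 347 and 263 (-0.40, -0.59 to -0.21). Impact, an inhibitor of the kinase GCN2, was at 679.7 and 654 (-0.06, -0.18 to 0.07).

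In the Kcnq1 cluster of chromosome 7, the non-coding RNA Kcnq1ot1, which is expressed from the paternal allele and silences the cluster on it, was lower without reaching 2-fold. It had 81.3, 74.5 and 94.4 normalized counts in WT and 47.7, 38.1 and 50.03 in Setd5+/-, without overlap, at -0.87 (-1.34 to -0.44). Cdkn1c, the cyclin-dependent kinase inhibitor p57, had 18.5 and 22.2 (0.25, -0.50 to 1.02). It shares 30.7% of its exon bases with an antisense gene. Slc22a18, a transporter, had 2 reads in WT and 6 in Setd5+/-, and Phlda2, a placental growth gene, had none.

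Further growth genes were low. Plagl1, a zinc finger gene that is paternally expressed, was at 32.6 and 39.3 normalized counts (0.26, -0.30 to 0.83). Grb10, an adaptor that dampens insulin and IGF signalling, had 18 reads in WT and 9 in Setd5+/-. In the Dlk1-Meg3 cluster of chromosome 12, the non-coding RNAs Meg3, Rian and Mirg and the Notch ligand-like Dlk1 had no read in either library. Rtl1, a retrotransposon-like gene of this cluster that is expressed from the paternal allele, had 20 and 26 reads, or 5.52 and 10.3 normalized counts. By the counting interval none of these low values separated the libraries, since the interval of each gene with reads held 0. The sample values of Rtl1 did not overlap (4.98, 4.96 and 6.63 in WT, 7.15, 9.53 and 14.3 in Setd5+/-), but its interval was -0.38 to 2.23.

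Genes around the clusters were compared to see what the surrounding chromosome did. Within 500 kb of the 16 clusters, 133 other genes were compared, of which 17 were higher and 6 lower past 2-fold (17.3%, beside 16.4% of all genes), with a median of 0.06. Near Peg10 and Sgce, 4 of 7 such genes were higher past 2-fold (beside 10.3% of all genes), with a median of 1.04, and none was lower (beside 6.14%). The higher genes included Pon3 and Pon2, the paraoxonases, at 2.32 (1.58 to 3.46) and 1.21 (1.11 to 1.32), and Casd1 at 1.04. Pon3, at 7.18 normalized counts in WT, was compared only because of its Setd5+/- level. Around Plagl1, 4 of 9 were higher and none lower, beside the same shares, with Phactr2, a regulator of protein phosphatase 1, at 1.93 (1.67 to 2.21). In sets of 7 or 9 genes, none lower cannot be told apart from 6.14%. None of the 15 genes near the Peg3 cluster and none of the 8 near Zrsr1 and Commd1 was past 2-fold in either direction, beside 16.4% of all genes. Among the 13 near Igf2r, 1 was higher and 1 was lower, with a median of -0.32, and the single lower gene near H19 among 9 was Dusp8, a MAP kinase phosphatase (-2.13). Pon2, Pon3, Casd1, Phactr2 and Dusp8 were named after their values were seen.

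**Figure D4:**
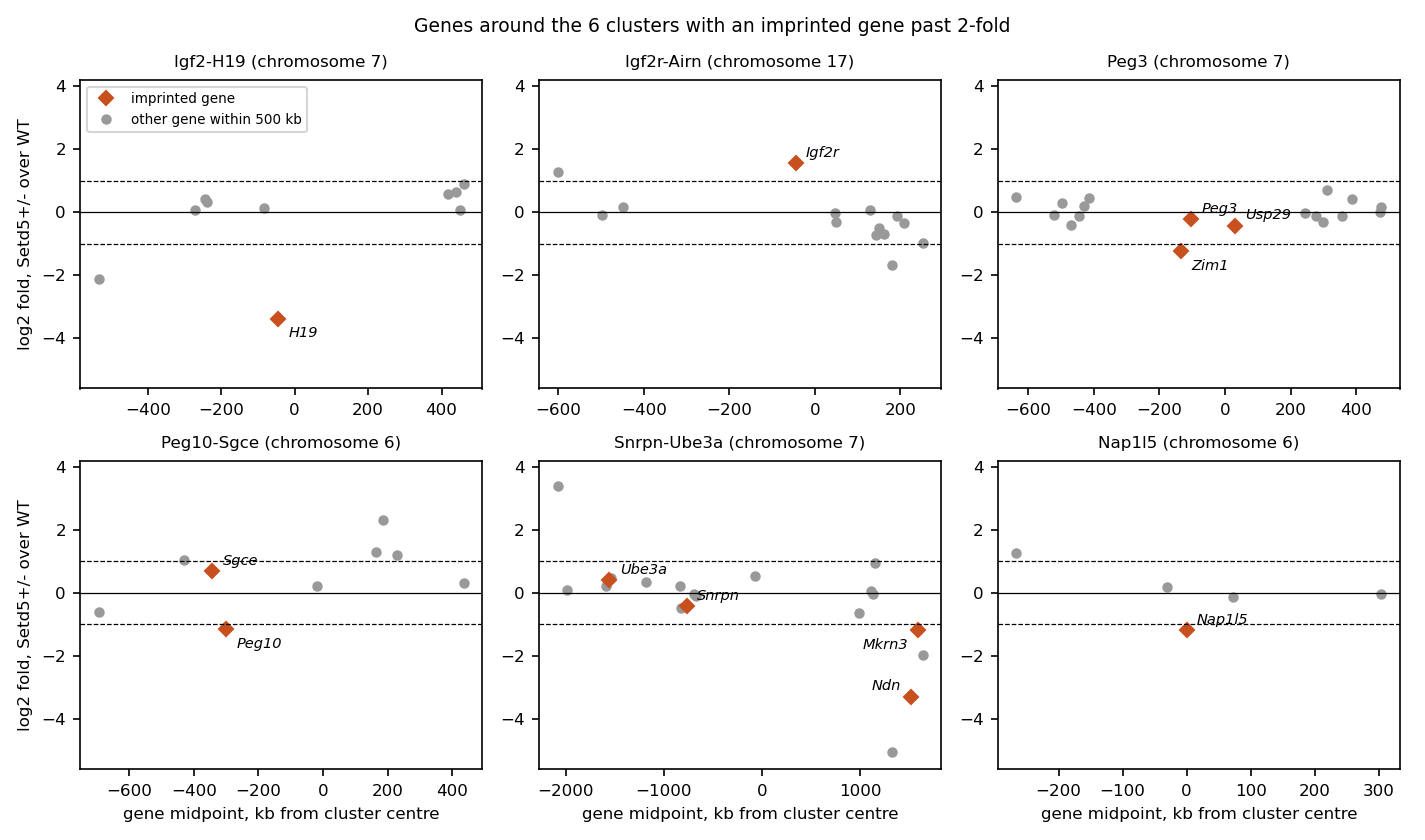
Log2 fold change (Setd5+/- over WT) of imprinted genes (diamonds) and other genes within 500 kb (grey circles) by the distance of their midpoint from the cluster's centre in kb, for the 6 clusters with a gene past 2-fold. Dashed lines mark 2-fold. The grey circles near H19, Igf2r, Zim1 and Nap1l5 lie mostly between the dashed lines, and at the right end of the Snrpn-Ube3a panel Ndn, Mkrn3 and the grey circles of Gm9801 and of Peg12 at -1.99 lie below them.

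Among 84 named neighbours in the same clusters, 79 were found and 48 compared, with 8 higher and 1 lower past 2-fold (18.8%, beside 16.4% of all genes) and a median of 0.10. The 2 with the largest positive values were Atp10a, given above, and Tnfrsf23, a decoy death receptor of the Kcnq1 cluster (2.21 to 19.5 normalized counts, 2.67, 1.62 to 5.09). Tnfrsf23 was compared only because of its Setd5+/- level. The single lower gene was Peg12. A further list held 25 genes taken as imprinted, and whether they are imprinted in these cells was not checked. Of these, 15 were compared, with 2 higher and 3 lower (33.3%, beside 16.4% of all genes) and a median of 0.27. Peg12 is on this list as well as among the neighbours, and without it 14 genes were compared, with 2 higher and 2 lower (28.6%) and a median of 0.32. Axl, a receptor tyrosine kinase, was at 335 and 843 normalized counts (1.33, 1.19 to 1.48), and Qpct, glutaminyl cyclase, at 184 and 429 (1.22, 1.03 to 1.42). Cntn3, a neuronal adhesion molecule, had 75 reads in WT and none in Setd5+/-, so it was at least 8.69-fold lower against a floor of 3 read pairs over the library. Cntn3 was compared only because of its WT level, so once compared it could only be counted as lower. Cntn3 and Peg12 had the most negative values of this list.

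Of 23 listed factors that keep imprints or act on DNA methylation, 21 were compared, with none higher and 2 lower past 2-fold (9.52%, beside 16.4% of all genes) and a median of -0.23. The interval lay below 0 for 12 and above 0 for 2, beside 32.3% and 32.0% of all genes. Naa10, an N-terminal acetyltransferase that acts with DNMT1 at imprinted loci, was at 205 and 88.2 normalized counts (-1.21, -1.53 to -0.92), and Uhrf1, which brings DNMT1 to newly copied DNA, at 277 and 137 (-1.01, -1.27 to -0.76). Dnmt1, named after its value was seen, was at 1485 and 858 (-0.79, -0.89 to -0.69), and Zfp57, likewise, at 312 and 189 (-0.72, -0.95 to -0.51).

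In the IGF axis, to which Igf2, Igf2r and Grb10 belong, 14 of 20 listed genes were compared, with 3 higher and 2 lower past 2-fold (35.7%, beside 16.4% of all genes) and a median of 0.23. The mRNA-binding proteins Igf2bp2 and Igf2bp3, named for their binding to Igf2 mRNA, were lower, at 348 and 22.6 normalized counts (-3.89, -4.53 to -3.41) and at 872 and 148 (-2.55, -2.79 to -2.34). Insl6, an insulin-like peptide, was higher, with 12 reads in WT and 90 in Setd5+/- (3.09, 2.21 to 4.93), and so was Grb14, an adaptor related to Grb10, at 22.9 and 110.4 normalized counts (2.22, 1.77 to 2.80). Insl6 was compared only because of its Setd5+/- level. Igfbp5, the third higher gene and named after its value was seen, encodes a secreted IGF-binding protein and was at 1626 and 6111 (1.91, 1.85 to 1.97). It lies on chromosome 1, where 25.4% of the genes compared were higher past 2-fold, beside 9.22% on the other chromosomes. The part of that shift in the value of Igfbp5 was not tested. The IGF1 receptor gene Igf1r was at 509.9 and 515 (0.01, -0.13 to 0.16).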

How the data were processed

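The authors trimmed the reads with Trimmomatic, aligned them with Bowtie2 to mm10, and deposited gene counts divided by DESeq2 size factors. The counting program and any use of strand are not given in the sources used here. Many deposited values had lost their decimal point, so the column is treated as another unit than counts. Each point was put back so that every value stood for whole reads, and the deposited mean decided where several places were possible (10986 of 52438 genes). 1 read was worth 0.827 to 0.829 normalized counts in WT and 1.19 in Setd5+/- samples. The deposited columns of the authors' own comparison (log2 fold change, p-values) were not used. All 6 value columns were mapped to samples.

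The samples of a genotype were averaged as 1 library. Fold changes used a pseudocount of 1, over genes whose mean reached 10 normalized counts. Intervals used reads divided by 1.945, the variance over the mean within a genotype, since both reads of a pair were counted. The restoration and the intervals were tested on simulated data. Positions and exon lengths are those of GENCODE vM21 (GRCm38), and promoters are from RefSeq. Genes were named by a rule: every imprinted gene, Setd5, and from each other list the 2 largest rises and 2 largest falls past 2-fold. Further genes, such as Sox2, Nes, Pax6 and Igf1r, were named outside this rule. The imprinted genes and lists were chosen with earlier results of these data known. Alternatives changed the scaling, pseudocount, filter, samples and fold threshold. Python 3.11.15, numpy 2.4.6, pandas 2.3.3 and scipy 1.17.1 were used.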

Additional observations from a re-analysis of the deposited data

How the results depend on the processing

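With 1 library per genotype, no alternative replaces a replicate. The counts of imprinted genes past 2-fold (7, of which 1 higher and 6 lower) did not change under 3 other scalings, a pseudocount of 5 or the fit by replicate block. With each sample left out in turn the total ranged from 6 to 7. Peg10 moved to -0.99 without Setd5+/- replicate 2, Mkrn3 to -0.99 without Setd5+/- replicate 1, and H19 fell under the filter without WT replicate 2. Without a filter, 9 of 29 imprinted genes (2 higher, 7 lower) and 5541 of all 26797 genes were past 2-fold. In the main comparison these were 7 of 23 and 2666 of 16266 (30.4% and 16.4%). With a mean of at least 50 they were 5 of 18 (1 higher, 4 lower) and 1620 of 12570. The 2 added without a filter were Slc22a18, at 2 reads in WT and 6 in Setd5+/-, and Asb4, at 10 and 0. At 1.5-fold, 10 of 23 imprinted genes (2 higher, 8 lower) and 5722 of all 16266 genes (35.2%) passed. By the counting interval alone, 16 of 23 imprinted genes (4 higher, 12 lower, 69.6%) and 10457 of all 16266 genes (64.3%) differed. The median of the imprinted genes lay between -0.28 and -0.18 under every setting, and the replicate block, which pairs samples of the same number although these share only a number and come from a single library per genotype, gave -0.22. Gnas alone moved beyond its counting interval, to -0.70 with scaling to the total counted reads and -0.62 with genes outside chromosome 1 centred at 0. Commd1 changed sign around 0. No other imprinted gene compared changed sign. Depth limits the 12 genes under 10 normalized counts, for which no difference was detectable by the counting interval.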
